A study of Mus musculus with 38 samples.

Results

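Collagens are the main structural proteins of the extracellular matrix, and their genes are described here in cells of the Tcf21 lineage from mouse visceral adipose tissue. Members were all genes of the deposited expression tables whose symbol is Col, a number, the letter a and a number. The rule found 44 of 25746 genes, and it reads symbols only, although the family was taken up with earlier results of these data known. By textbook class they were 11 fibrillar collagens, 6 basement membrane collagens, 9 fibril-associated collagens with interrupted triple helices (FACIT) and 18 others (beaded-filament, network-forming, transmembrane and remaining types).

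Collagen chains assemble as trimers wound into a triple helix. Types I, III and V form the banded fibrils of connective tissue, type IV forms the sheet of basement membranes, and type VI forms beaded filaments around cells, adipocytes included. FACIT collagens sit on the surface of fibrils. In adipose tissue, fibroblasts and progenitors of fat cells are known as major producers of these chains, and the matrix around fat cells is remodelled as the tissue grows.

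RNA was measured in 29 libraries, each from 5000 sorted cells, as TPM, a transcript level corrected for length and scaled within the library. WT cells came from mice at postnatal day 12 (P12, n = 2), 3 weeks of age (3W, n = 7) and 6 months of age (6M, n = 2), all on regular diet, and from mice given a high-fat diet (HFD) from 6 weeks of age for 1 week (1W HFD, n = 4) or 12 weeks (12W HFD, n = 5). Cells labelled KO, for Tcf21 knockout, came from 5 libraries at 3W, 2 after 1W HFD and 2 after 12W HFD. ATAC-seq, which maps open chromatin, was available for 9 further libraries: 3 of WT and 2 of KO cells at 3W, and 2 of WT cells for each length of HFD. The labels give all mice tamoxifen to activate MerCreMer, a Cre recombinase switched on by that drug, so WT controls had it too. The promoter driving the recombinase, the age at dosing in each group and whether libraries are separate animals are not given in the sources used here. If libraries share animals, the p-values below measure technical spread. The HFD groups are also older than 3W. Diet and age therefore cannot be told apart in them, since no regular-diet cells of those ages were analysed here.

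The targeted gene was checked first. Tcf21 averaged 35.2 ± 18.3 TPM (SD, n = 5) in KO 3W against 64.9 ± 27.0 (n = 7) in WT 3W, and the groups overlapped (log2 change -0.91 ± 0.35 SE, adjusted p = 1 by limma). It was 12.3 ± 5.90 TPM (n = 2) in KO against 23.1 ± 16.6 (n = 4) in WT after 1W HFD, and 3.66 ± 2.85 (n = 2) against 9.37 ± 2.98 (n = 5) after 12W HFD, where the groups did not overlap. The 3W titles name 5 pairs, and in each the KO library lay below every WT library of its pair: 20.01 against 37.61 TPM, 60.88 against 109.23, 21.88 against 46.18 and 47.56, 48.2 against 83.8, and 25.1 against 46.97. No library lacked the transcript. Within WT cells Tcf21 was lower at 6M than at 3W, at 3.89 ± 2.33 TPM (n = 2; -3.74 ± 0.49, limma adjusted p = 9.28e-06). It was also called lower than 3W in WT 1W HFD (-1.57 ± 0.38, adjusted p = 0.00936) and WT 12W HFD (-2.62 ± 0.35, adjusted p = 2.91e-06). In 22 of 38 samples the genotype given in the labels was not that of the title, in 16 it was, and the titles were used. Group names below are those titles, and any KO direction rests on them.

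Library-wide facts touch the collagen results in 2 ways. The summed level of 7 fibroblast and adipose progenitor markers (Pdgfra, Pdgfrb, Cd34, Ly6a, Dcn, Lum, Thy1) lay between 15691 and 30335 TPM in every library. None of them was at 0 anywhere, so these 7 markers were present throughout. Dcn alone ran from 10335 to 25139 TPM, so the sum says little of the other markers. Cd34, for 1, was lower in WT 12W HFD than in WT 1W HFD (-1.35 ± 0.18, limma adjusted p = 7.55e-06). The summed level of 10 macrophage markers (Adgre1, Csf1r, Cd68, Lyz2, Cd74, C1qa, C1qb, Ptprc, Tyrobp, Fcer1g) was 49.2 to 215 TPM in WT 3W, 587 to 847 in WT 1W HFD, 3516 to 10654 in WT 12W HFD and 2989 to 7143 in WT 6M. Endothelial markers (10 genes) summed to 326 to 670 TPM at P12, 45.8 to 93.9 in WT 3W and 167 to 497 in WT 1W HFD. Erythroid markers (5 genes) summed to 1116 to 9488 TPM in WT 3W and 9134 to 39123 in WT 6M. In WT 12W HFD they summed to 3613 to 41699 (median 4165). None of the 5 was called at 6M or in WT 12W HFD against 3W. In bulk libraries, fewer cells of a type and less RNA per cell cannot be told apart. Total TPM per library ran from 918008 to 969385, and read depth is unknown because TPM keeps none.

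Promoters of 6 collagens are printed because results below turn on these genes and because the minor type IV genes lie in close pairs, Col4a4 with Col4a3 (71 bases between them) and Col4a6 with Col4a5 (1308 bases). Sequences are from RefSeq on GRCm38.p6, 5′ to 3′ on the gene's own strand, with capitals marking a match to 1 of 5 motifs searched on both strands. The GC box was searched as GGGCGG and the CCAAT box by the letters of its name. The TATA box was searched with the further letters that make it TATAAA. An E-box, the kind of site that basic helix-loop-helix factors bind, was searched as CAGCTG. The AP-1 site, which factors of the Fos and Jun families bind, was searched as TGANTCA. Each holds the bases upstream of the start site that lie in no collagen gene of the tables. A start site was found for 35 of the 44 collagens; Col14a1, Col4a3, Col9a3, Col26a1, Col12a1, Col2a1, Col1a1, Col5a2 and Col22a1 had no entry.
Col4a4 (chr1:82586850-82586920, minus strand, the whole 71 bases between Col4a4 and Col4a3): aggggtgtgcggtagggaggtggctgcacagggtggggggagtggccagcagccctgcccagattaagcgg
Col4a5 (chrX:141475169-141475384, plus strand): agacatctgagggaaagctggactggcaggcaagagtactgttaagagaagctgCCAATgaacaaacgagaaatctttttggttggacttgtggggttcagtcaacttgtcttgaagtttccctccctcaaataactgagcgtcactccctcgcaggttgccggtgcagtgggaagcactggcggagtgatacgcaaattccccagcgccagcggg
Col8a1 (chr16:57754738-57754987, minus strand): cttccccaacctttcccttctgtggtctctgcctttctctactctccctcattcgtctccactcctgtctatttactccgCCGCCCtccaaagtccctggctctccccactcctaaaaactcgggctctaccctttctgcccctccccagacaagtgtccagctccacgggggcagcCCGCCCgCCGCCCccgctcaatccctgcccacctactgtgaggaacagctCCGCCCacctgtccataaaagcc
Col6a5 (chr9:105960644-105960893, minus strand): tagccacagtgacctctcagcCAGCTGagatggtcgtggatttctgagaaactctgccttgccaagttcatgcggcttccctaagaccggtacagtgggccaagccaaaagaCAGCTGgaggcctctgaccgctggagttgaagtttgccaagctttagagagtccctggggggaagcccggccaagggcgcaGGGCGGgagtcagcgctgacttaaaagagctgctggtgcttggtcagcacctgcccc
Col16a1 (chr4:130047590-130047839, plus strand): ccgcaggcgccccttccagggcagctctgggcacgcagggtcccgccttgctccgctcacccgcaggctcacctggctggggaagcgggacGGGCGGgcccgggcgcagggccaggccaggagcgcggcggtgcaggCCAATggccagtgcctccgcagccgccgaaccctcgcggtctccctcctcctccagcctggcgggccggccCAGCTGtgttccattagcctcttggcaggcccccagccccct
Col11a1 (chr3:114030290-114030539, plus strand): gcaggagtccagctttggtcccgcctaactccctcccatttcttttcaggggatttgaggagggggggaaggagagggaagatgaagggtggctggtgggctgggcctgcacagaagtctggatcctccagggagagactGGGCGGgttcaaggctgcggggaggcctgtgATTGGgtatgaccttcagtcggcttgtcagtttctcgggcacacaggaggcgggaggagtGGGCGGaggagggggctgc

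The Col4a4 stretch held none of the 5 motifs, Col4a5 held a CCAAT box, and Col8a1 held 4 GC boxes. Col6a5 held 2 E-boxes and a GC box, Col16a1 held a GC box, a CCAAT box and an E-box, and Col11a1 held 2 GC boxes and a CCAAT box. Over 300 bases around the start site (250 upstream, 50 downstream), a GC box lay in 60% of the 35 collagen promoters and in 35.7% of 32851 promoters in the RefSeq table. A CCAAT box lay in 31.4% against 37.4%, a TATA box in 14.3% against 13.6%, an E-box in 20% against 16.3% and an AP-1 site in 2.86% against 7.81%. The collagen shares use a single start site per gene and the RefSeq shares every start site of each gene, so their units differ. A match is a description of letters, not a binding site.

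Collagen RNA was dominated by the fibrillar types I and III. Over all 29 libraries Col3a1 (the chain of type III) averaged 5942 TPM, Col1a1 2093 and Col1a2 1873 (the chains of type I). Types I and III together made up 67.0% to 87.5% of collagen TPM in every library. Next came type VI, with Col6a1 at 672 TPM, Col6a2 at 399 and Col6a3 at 207. The FACIT collagen Col14a1, a fibril-surface collagen, averaged 262 TPM. Type V, which sets fibril diameter in type I fibrils, had Col5a2 at 140 and Col5a1 at 114. The most abundant basement membrane chains were Col4a1 at 95.7 and Col4a2 at 76.6 TPM, and Col15a1, a basement-membrane-zone collagen, stood at 89.2.

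Of the 44 members, 22 averaged at least 10 TPM, 9 from 1 to 10 TPM and 13 under 1 TPM. At least 1 TPM was present in all 29 libraries for 19 of them: 7 of 11 fibrillar, 3 of 6 basement membrane, 2 of 9 FACIT and 7 of 18 others. Col2a1, the cartilage fibrillar collagen, and Col10a1, the collagen of hypertrophic cartilage, reached 1 TPM in no library. Those 2 genes and Col19a1 did not pass the filter for testing (at least 1 TPM in at least 2 libraries), so 41 collagens of 15659 genes were tested. Some members passed through very few libraries. Col22a1 did so through 1 P12 library at 6.15 TPM and 1 WT 3W library at 1.02, with at most 0.01 elsewhere, and Col9a1 through the 2 P12 libraries alone.

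**Figure D1:**
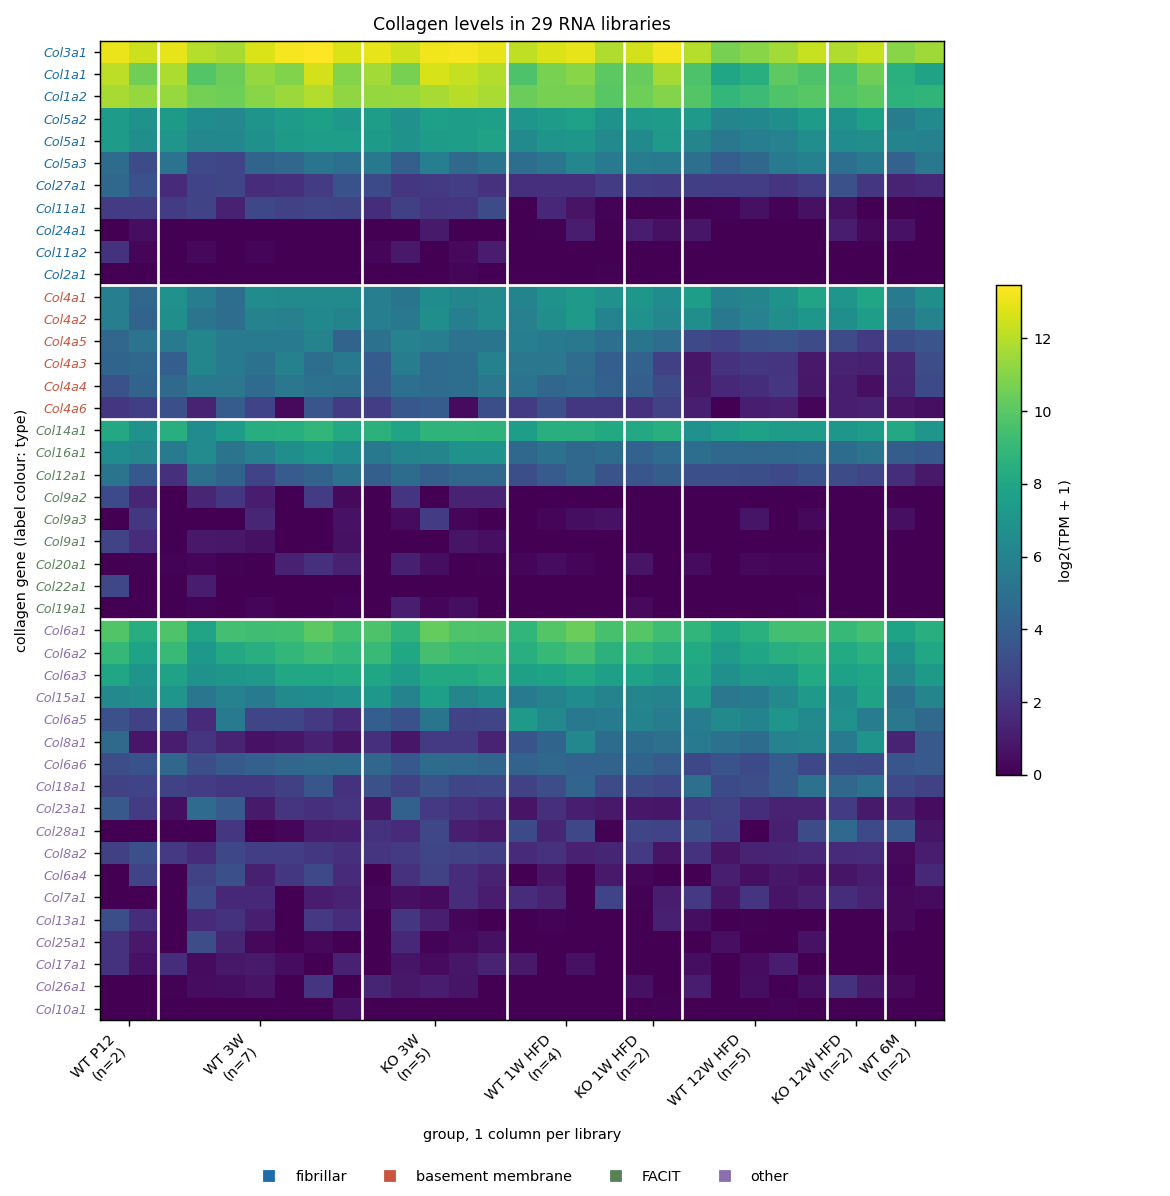
Level of each of the 44 collagens (rows, grouped by type) in each of the 29 RNA libraries (columns, grouped by the 8 groups), coloured by log2(TPM + 1) with brighter colours for higher levels. Col3a1, Col1a1 and Col1a2 are the brightest rows, Col4a3, Col4a4 and Col4a5 are darker in the 12W HFD and 6M columns, and Col8a1 is brighter in the HFD columns.

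The share of all TPM taken by collagens was 1.60% ± 0.59 (SD, n = 2) at P12, 1.54% ± 0.61 (n = 7) in WT 3W and 1.92% ± 0.45 (n = 5) in KO 3W. After 1W HFD it was 1.19% ± 0.37 (n = 4) in WT and 1.48% ± 0.40 (n = 2) in KO. After 12W HFD it was 0.685% ± 0.257 (n = 5) in WT and 0.939% ± 0.226 (n = 2) in KO. WT 6M had the lowest mean share, 0.471% ± 0.088 (n = 2). These shares are descriptive and were not tested; Col3a1 alone made up 40.2% to 59.0% of collagen TPM.

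**Figure D2:**
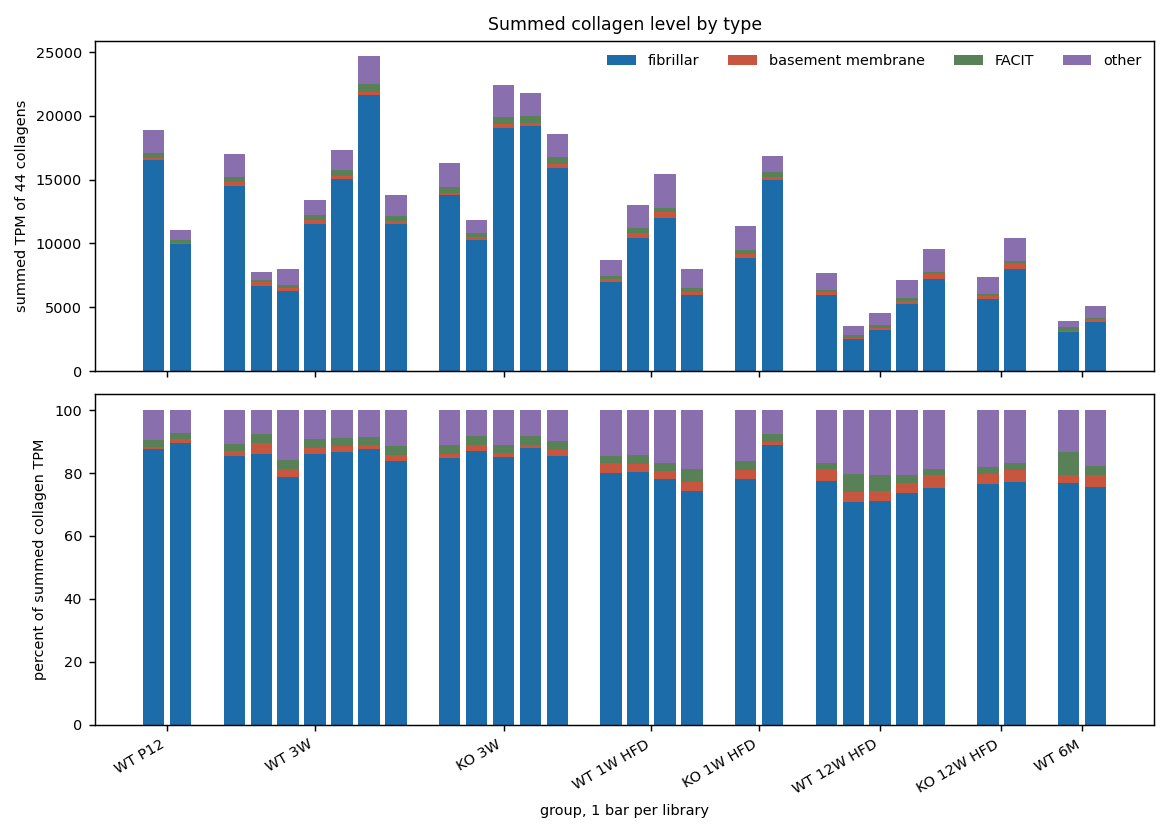
Summed TPM of the 44 collagens in each RNA library (upper panel, 1 bar per library, coloured by collagen type) and the percent of that sum in each type (lower panel). Fibrillar collagens make up 70.7% to 89.7% of every bar, and the sums run from 3546 to 9564 TPM in WT 12W HFD against 7756 to 24666 in WT 3W.

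The first comparison asked whether Tcf21 knockout changes collagen expression at a matched age and diet. No collagen passed the limma threshold (adjusted p under 0.05 over 15659 genes) at 3W, after 1W HFD or after 12W HFD. Few genes of any kind passed: 0% of all genes tested passed at 3W, 0.0255% after 1W HFD and 0.00639% after 12W HFD. At an unadjusted p under 0.05 there were 1, 2 and 2 collagens, among 546, 540 and 570 genes in all.

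At 3W the collagen with the lowest p was Col1a2, whose chain pairs with Col1a1 in type I collagen. It stood at 2549, 2632, 3247, 3472 and 4162 TPM in the 5 KO libraries, and in the 7 WT libraries ran from 1449 through a median of 2341 to 3804. All 5 KO values lie above the WT median and below the WT maximum except 1, so the groups overlap. The log2 change was 0.47 ± 0.22 SE (95% interval 0.02 to 0.93; limma adjusted p = 1). Col1a1 had 0.70 ± 0.44 (interval -0.19 to 1.60) and Col3a1 0.27 ± 0.30 (-0.34 to 0.88), neither past the threshold. Col4a1 (-0.15 ± 0.35) and Col4a2 (0.18 ± 0.34) had intervals that spanned 0. The largest positive values belonged to Col28a1 (1.07 ± 0.59), Col6a5 (0.78) and Col5a3 (0.77), the largest negative to Col13a1, a transmembrane collagen (-0.55), Col6a4 (-0.48) and Col7a1 (-0.43).

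Over the 41 tested collagens the median log2 change at 3W was 0.23, with 25 positive and 16 negative values, against a median of 0.01 over all genes tested. SEs ran from 0.21 to 0.59 with a median of 0.32. In each collagen the KO and WT libraries at 3W overlapped. No cell type marker was called at 3W. All 10 macrophage markers had positive values (median log2 change 0.92) and all 5 erythroid markers negative ones (median -0.47). Their part in the collagen values at 3W was not tested.

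After 1W HFD the 2 lowest p-values were both of type IV chains that pair in basement membranes of kidney, lung and other sites. Col4a3 was 4.90 and 17.9 TPM in KO cells, against 14.9, 26.6, 39.5 and 39.6 in WT (-1.46 ± 0.60, interval -2.70 to -0.23, limma adjusted p = 1). Col4a4 was 7.82 and 16.1 TPM in KO cells, against 16.9, 21.0, 25.4 and 34.3 in WT (interval -1.94 to -0.06, limma adjusted p = 1). Both Col4a4 values in KO lay below all 4 in WT, while for Col4a3 1 KO value lay within the WT range. Col7a1, the anchoring-fibril collagen, had -0.87, and the largest positive values were those of Col28a1 (0.92), Col1a1 (0.61) and Col13a1 (0.56), none past the threshold. The median over 41 collagens was 0.00, and that of all genes tested was 0. One cell type marker was called, the mesothelial gene Lrrn4, higher in KO. The 7 mesothelial markers had a median log2 change of 2.35, with summed levels of 16.6 to 111 TPM in KO cells, against 1.06 to 9.98 in WT. All 10 macrophage markers had positive values, none called (median 0.57), with summed levels of 1205 to 1212 TPM in KO against 587 to 847 in WT. All 5 erythroid markers were positive as well, none called (median 1.3). Their part in the collagen values was not tested.

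After 12W HFD, Col28a1 (23.1 and 6.87 TPM in KO; 0, 1.25, 4.58, 7.78 and 8.01 in WT) and Col26a1 (0.97 and 2.88 in KO; 0 to 1.14 in WT) had values of 1.79 ± 0.84 (interval 0.07 to 3.52) and 1.05 ± 0.43 (0.16 to 1.93), with limma adjusted p = 1 for both. For each the groups overlapped. Col1a1 stood at 772 and 1506 TPM in KO cells, against 239 to 1104 in WT (0.91 ± 0.62, interval -0.36 to 2.19). The largest negative values were those of Col4a4 (-0.57), Col17a1 (-0.39) and Col4a5 (-0.38). The median over 41 collagens was 0.25, against -0.01 over all genes tested. Of 10 macrophage markers 9 had negative values and 1 a positive one (median log2 change -0.78), none called. Of 10 endothelial markers 7 were positive and 3 negative (median 0.68), none called. Their part in the collagen values after 12W HFD was not tested.

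Whether the KO difference itself was unlike in the HFD groups and at 3W was tested as an interaction. Age and diet change together in it. No collagen passed when the KO effect after 1W HFD was set against that at 3W (background 0.00639% of genes) or when the effect after 12W HFD was (background 0%), and none had an unadjusted limma p under 0.05 in either. For Col4a3 the difference of effects after 1W HFD was -1.23 ± 0.73 (interval -2.73 to 0.26), and for Col1a2 -0.20 ± 0.40 (-1.02 to 0.61). After 1W HFD the 3 largest positive differences were those of Col13a1 (1.10), Col27a1 (0.48) and Col20a1 (0.47), and the 3 largest negative ones those of Col4a3, Col6a5 (-1.07) and Col18a1 (-0.87). After 12W HFD the 3 largest positive ones were those of Col6a4 (0.77), Col4a1 (0.75) and Col26a1 (0.74), and the 3 largest negative ones those of Col6a5 (-0.88), Col12a1 (-0.78) and Col14a1 (-0.60).

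**Figure D3:**
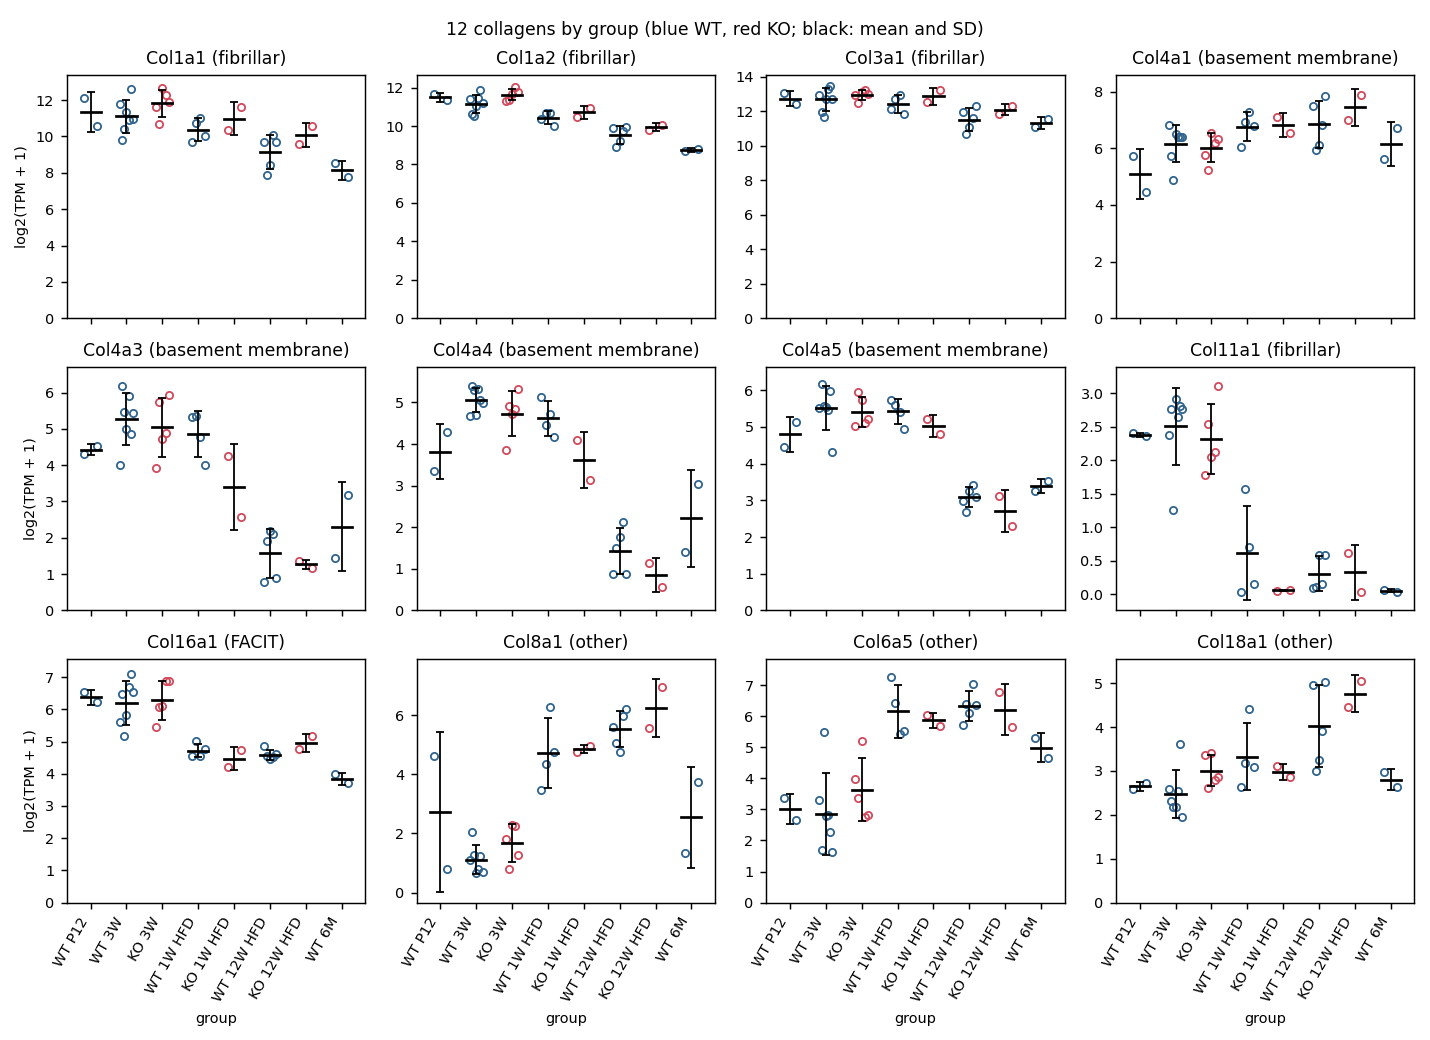
Level of 12 collagens as log2(TPM + 1) in every RNA library (circles; blue WT, red KO) with the group mean and SD in black. KO and WT circles of 1 age and diet lie among each other in most panels, while Col4a3, Col4a4 and Col4a5 drop in the 12W HFD groups and at 6M, and Col8a1 and Col6a5 climb in the HFD groups.

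Between P12 and 3W only 1 collagen, Col9a1, passed the limma threshold among the WT cells, where 1.63% of all genes did so (1% lower and 0.626% higher). Col9a1, a FACIT chain known from cartilage, had 5.66 and 2.21 TPM at P12 and 0 to 0.88 TPM in the 7 WT 3W libraries. The P12 libraries were the only ones of the 29 with at least 1 TPM, so the gene was tested only because it was high there and had to be lower at 3W. Its log2 change of -1.78 is therefore a description, and without P12 replicate 1 it was -1.25 and not called. No open-chromatin peak lay at the Col9a1 start site in any ATAC library.

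Several collagens stood apart at P12 without passing. Col27a1, a fibrillar collagen of cartilage and other developing tissue, was 22.6 and 9.29 TPM at P12 against 2.12 to 9.51 at 3W (-1.61 ± 0.44, limma adjusted p = 0.0563). Col4a4 went the other way, 9.18 and 18.5 TPM at P12 against 24.4 to 40.9 at 3W with no overlap (1.25 ± 0.43, adjusted p = 0.149). Col7a1 had 1.21 and Col4a1 1.06, and Col8a1, at 23.7 TPM in 1 P12 library and 0.76 in the other, had -1.61. Col3a1 (-0.06) and the type VI chains Col6a1, Col6a2 and Col6a3 did not pass the test, and the sign of the Col3a1 value flips with the scaling. Other cell types' markers moved beside these values. Of 10 endothelial markers, 6 were called lower at 3W than at P12 (median log2 change -2.95). Of 5 erythroid markers, 4 were called higher (median 4.93), with summed levels of 9.68 and 879.64 TPM at P12 against 1116 to 9488 in WT 3W. Of the 7 fibroblast markers, 1 was called higher. Their part in the collagen values was not tested.

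From 3W to 6M on regular diet, collagen RNA fell over several types. Of 41 collagens tested in WT cells, 11 fell and 1 rose, where 6.85% of all genes were called lower and 4% higher (10.8% in either direction). The median collagen changed by -0.87 and the median gene by -0.24. Under median-ratio scaling, which brings the median gene to -0.03, 9 collagens were lower and 1 higher, and Col3a1 and Col5a2 were no longer called. The 6M group holds 2 libraries, and without either of them 7 collagens were called.

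Both type I chains fell. Col1a1 (ENSMUSG00000001506, mm10 chromosome 11, 94936224 to 94953042) was 366 and 214 TPM at 6M against a lowest, median and highest value of 909, 2009 and 6194 at 3W. Col1a2 (ENSMUSG00000029661, chromosome 6, 4504814 to 4541544) was 413 and 447 TPM against 1449, 2341 and 3804. For each chain every 6M library lay below every 3W library, and the 2 Col1a2 values at 6M are close together. The log2 changes were -2.99 ± 0.60 (limma adjusted p = 0.0014) and -2.40 ± 0.30 (adjusted p = 7.1e-06). Without 6M replicate 2 the Col1a1 call was lost.

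Other fibrillar chains that fell were Col3a1, Col5a2 and Col11a1. Col3a1 (ENSMUSG00000026043, chromosome 1, 45311538 to 45349706) was 2133 and 3008 TPM at 6M against 3303 to 11189 at 3W (-1.38 ± 0.41, limma adjusted p = 0.0289). Its call was lost without either 6M library. Col5a2, which lies 24614 bases from Col3a1, changed by -1.03 ± 0.34 (adjusted p = 0.047), a call lost when any of 7 of the 9 libraries was left out (all but WT 3W replicates 2 and 3). Col11a1, a minor fibrillar chain that nucleates fibrils, was 0.05 and 0.03 TPM against 1.39 to 6.55 (-2.45 ± 0.42, adjusted p = 0.000311). The log2(TPM + 1) scale understates its change at such low levels. Outside P12 and 3W, Col11a1 reached 1 TPM only in WT 1W HFD replicate 2 (1.96 TPM). It thus passed the filter through the groups where it is high, and its falls here and below are descriptions.

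Among FACIT collagens, Col16a1 and Col12a1 fell. Col16a1 (ENSMUSG00000040690, chromosome 4, 130047840 to 130099283) was 14.8 and 12.1 TPM at 6M against 35.3, 88.7 and 136 at 3W (-2.36 ± 0.36, limma adjusted p = 7.94e-05). Col12a1 was 2.44 and 0.86 TPM against 2.47 to 31.6 (-2.52 ± 0.56, adjusted p = 0.00371), and this call was lost without 6M replicate 2. Col14a1, the most abundant FACIT collagen, stood at 281 and 129 TPM within the 3W range of 91.1 to 460 and was not called. Col8a2, a network-forming chain, also fell (-1.54 ± 0.42, adjusted p = 0.0172; lost without 6M replicate 1).

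In the basement membrane class, Col4a3, Col4a4 and Col4a5 fell while Col4a1 and Col4a2 did not pass the test. Col4a5 was 8.49 and 10.6 TPM at 6M against 18.8, 45.9 and 71.8 at 3W (-2.13 ± 0.35, limma adjusted p = 0.000193). Col4a4 was 1.63 and 7.24 TPM against 24.4, 32.3 and 40.9 (-2.84 ± 0.43, adjusted p = 5.91e-05), and Col4a3 was 1.70 and 8.03 against 15.2, 42.7 and 71.7 (-2.97 ± 0.56, adjusted p = 0.000775; lost without 6M replicate 1). The library with less Col4a3 had less Col4a4. Col4a1 was 47.9 and 103 TPM at 6M, inside the 3W range of 28.5 to 112, with a log2 change of 0.00.

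Type VI showed 1 member going against the others. Col6a5, a long chain that can take the place of Col6a3 in the trimer, rose from a 3W range of 2.12 to 43.9 TPM (median 5.96) to 38.8 and 24.3 at 6M (2.13 ± 0.68, limma adjusted p = 0.0418). The groups overlapped through WT 3W replicate 3, and the call was lost without any of 7 of the 9 libraries (all but WT 3W replicates 1 and 3). Col28a1 (1.56) and Col8a1 (1.43) had positive values that did not pass. Col6a1, Col6a2 and Col6a3 had values of -1.17, -1.08 and -0.82 with adjusted p-values of 0.099, 0.105 and 0.155.

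The macrophage markers moved beside the age comparison: 9 of 10 were called higher at 6M (median log2 change 4.57). So were 3 of 5 tested lymphocyte markers (median 1.66) and 1 of 7 fibroblast markers, while 2 of 10 endothelial markers were called lower (median -0.51). When libraries were scaled to the 7 fibroblast markers, an alternative chosen after seeing the data, 11 collagens were still lower and 1 higher. Pericyte and smooth muscle markers also moved, with 3 of 8 called lower and summed levels of 29.5 to 58.2 TPM at 6M against 111 to 2406 at 3W. The part of these markers in the collagen values was not tested.

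**Figure D4:**
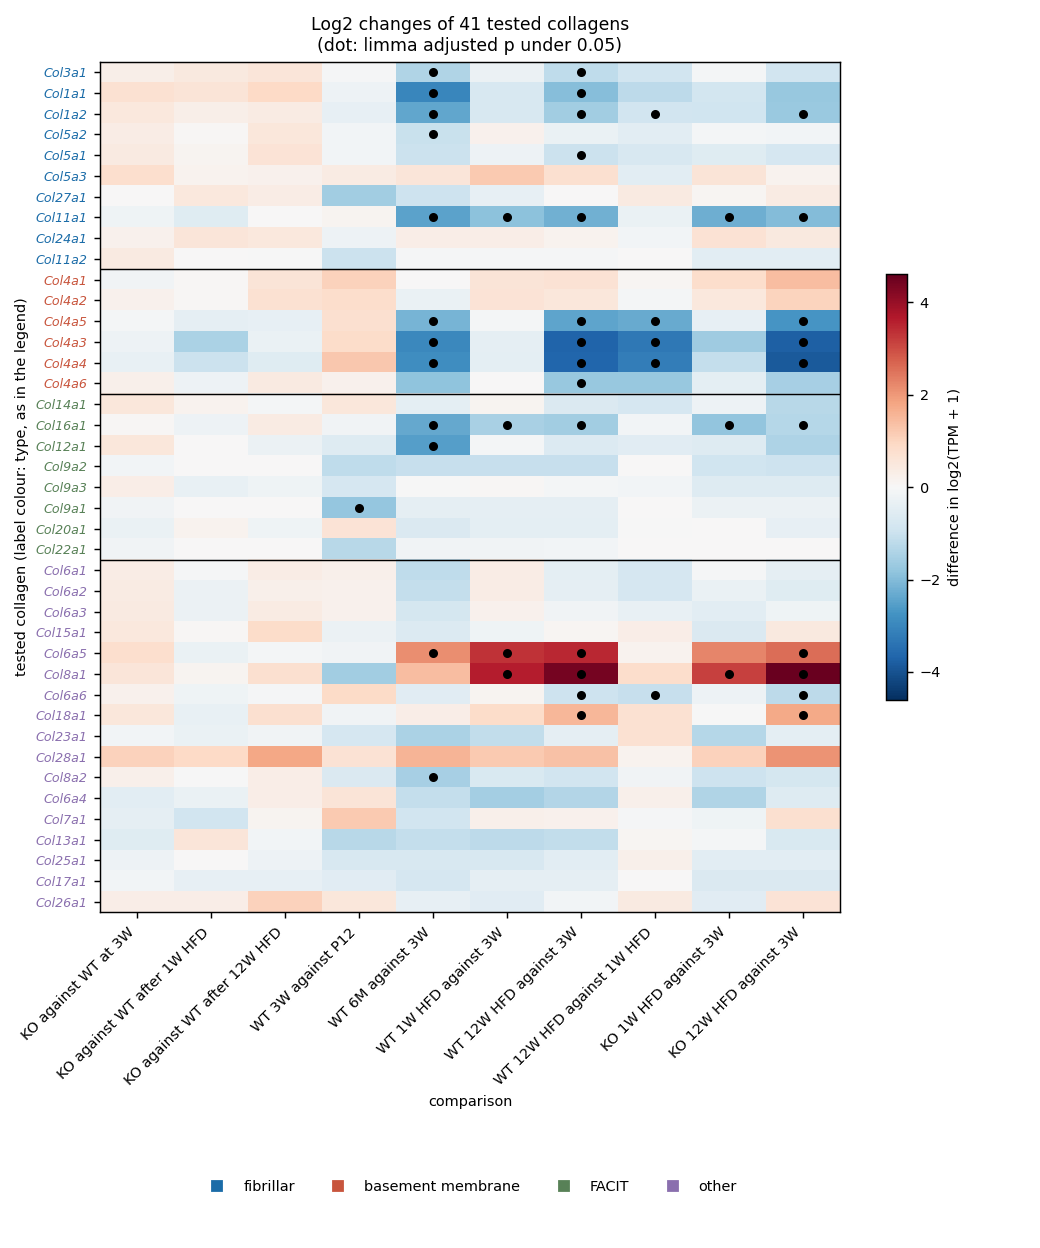
Log2 change on the log2(TPM + 1) scale of the 41 tested collagens (rows, grouped by type) in 10 comparisons (columns), blue for lower, red for higher, with a dot where the limma adjusted p was under 0.05. The 3 columns of KO against WT hold no dot, the column of 6M against 3W holds 12, and that of WT 12W HFD against 3W holds 14.

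After 1 week of HFD, 2 collagens rose and 2 fell in WT cells relative to 3W, where 4.78% of all genes were called higher and 3.25% lower (8.03% in either direction). All 4 calls held when each of the 11 libraries was left out in turn. The median collagen changed by -0.15 and the median gene by 0.02.

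Col8a1 (ENSMUSG00000068196, chromosome 16, 57624258 to 57754737), a short network-forming chain known from the vessel wall and Descemet's membrane, had the largest rise. It stood at 0.57 to 3.17 TPM (median 1.13) in WT 3W and at 10.1, 19.3, 26.3 and 76.8 TPM in WT 1W HFD. All 4 diet libraries lay above all 7 at 3W (3.60 ± 0.56, limma adjusted p = 0.000249). Its partner chain Col8a2 had a value of -0.70 ± 0.33 (adjusted p = 0.205), from 2.03 to 6.48 TPM at 3W to 1.33 to 2.76. The ratio of Col8a1 to Col8a2 was 0.125 to 1.56 over the WT 3W libraries and 4.89 to 57.7 over the WT 1W HFD libraries.

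Col6a5 (ENSMUSG00000091345, chromosome 9, 105856078 to 105960643) was 41.7, 45.5, 85.1 and 152 TPM after 1W HFD (3.31 ± 0.53, limma adjusted p = 0.000332). Only WT 3W replicate 3, at 43.9 TPM, reached into that range; the other 3W libraries had at most 8.77. Its neighbours on chromosome 9, Col6a6 at a distance of 27917 bases (0.13) and Col6a4 at 28810 (-1.57), were not called. Col5a3 had 1.20 and was not called either.

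The 2 that fell were Col11a1, at 0.03, 0.11, 0.64 and 1.96 TPM (-1.89 ± 0.33, limma adjusted p = 0.000688), and Col16a1, at 22.5, 22.6, 26.3 and 31.1 TPM (-1.49 ± 0.28, adjusted p = 0.00157). For Col16a1 all 4 values lay below the lowest WT 3W library, and for Col11a1 1 of 4 lay above it. The type I and III chains were not called: Col1a2 had -0.72 ± 0.24 with an adjusted p of 0.0606.

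Markers of other cell types moved in this comparison too. Of 10 macrophage markers 9 were called higher after 1W HFD (median log2 change 2.49), and of 10 endothelial markers 6 were (median 1.81), with the summed levels given above. Of 8 pericyte and smooth muscle markers 2 were called lower (median -0.51), with summed levels of 68.8 to 223 TPM against 111 to 2406 at 3W, and 1 of 7 fibroblast markers was called higher. Their part in the collagen changes was not tested.

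After 12 weeks of HFD, 3 collagens rose and 11 fell in WT cells relative to 3W, against a background of 7.94% of genes higher and 6.23% lower (14.2% in either direction). The median collagen changed by -0.43 and the median gene by -0.04. Of the 14 calls, 13 held when each of the 12 libraries was left out in turn; that of Col4a6 (-1.75 ± 0.54, limma adjusted p = 0.0262) was lost without WT 3W replicate 3 or 6 or WT 12W HFD replicate 2 or 5. Col6a6 also fell (-0.94 ± 0.25, adjusted p = 0.00885).

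The 3 minor type IV chains had the lowest p-values of all collagens. Col4a4 (ENSMUSG00000067158, chromosome 1, 82448423 to 82586849) fell to 0.83, 0.84, 1.81, 2.41 and 3.36 TPM from a 3W range of 24.4 to 40.9 (-3.63 ± 0.31, limma adjusted p = 9.77e-10). Col4a3 (ENSMUSG00000079465, chromosome 1, 82586921 to 82722059) fell to 0.73, 0.86, 2.73, 3.28 and 3.57 TPM from 15.2 to 71.7 (-3.70 ± 0.41, adjusted p = 9.25e-08). Col4a5 (ENSMUSG00000031274, chromosome X, 141475385 to 141689234) fell to 5.46, 6.83, 7.55, 8.58 and 9.78 TPM from 18.8 to 71.8 (-2.42 ± 0.26, adjusted p = 4.71e-08). None of the 5 libraries overlapped with 3W in any of these chains. These chains are known to assemble together into the basement membrane network that is defective in Alport syndrome.

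Relative to 1W HFD, WT 12W HFD cells had Col4a4 at -3.19 ± 0.36 (limma adjusted p = 7.73e-07), Col4a3 at -3.29 ± 0.47 (adjusted p = 2.23e-05) and Col4a5 at -2.33 ± 0.29 (adjusted p = 4.49e-06). At 1W HFD the same chains were at 16.9 to 34.3, 14.9 to 39.6 and 29.6 to 52.7 TPM and were not called against 3W. In that comparison of 12W with 1W HFD, 5 collagens fell and 0 rose, where 2.39% of genes were called lower and 3.54% higher (5.93% in either direction). The other 2 were Col6a6 (-1.07 ± 0.28, adjusted p = 0.0203) and Col1a2 (-0.89 ± 0.25, adjusted p = 0.034). The call of Col6a6 was lost without WT 1W HFD replicate 2 or WT 12W HFD replicate 1, 3 or 5, and that of Col1a2 without WT 1W HFD replicate 1, 2 or 3 or WT 12W HFD replicate 2 or 3. The largest positive values were those of Col8a1 (0.80), Col23a1 (0.71) and Col18a1 (0.70), none called. Beside them, 9 of 10 macrophage markers (median log2 change 3.49), 3 of 5 tested lymphocyte markers and 1 of 3 tested Schwann cell markers were called higher. In the same comparison 1 of 10 endothelial and 1 of 7 fibroblast markers were called lower, and the part of these markers was not tested.

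The major type IV chains were not called. Col4a1 was 60.1, 68.6, 113, 177 and 228 TPM in WT 12W HFD, against 28.5 to 112 in WT 3W, and Col4a2 was 42.4 to 140 against 27.3 to 104; neither passed the test in any of the 12 comparisons. The ratio of summed Col4a3 to Col4a6 over summed Col4a1 and Col4a2 had a median of 0.835 in WT 3W (0.433 to 2.55), 0.447 in WT 1W HFD (0.313 to 1.07), 0.0836 in WT 12W HFD (0.0256 to 0.122) and 0.157 at 6M (0.156 to 0.158). In KO cells it had a median of 0.711 at 3W, 0.284 after 1W HFD and 0.0340 after 12W HFD. The libraries of WT 12W HFD and of WT 3W do not overlap in this ratio, which needs no scaling between libraries. Within the pairs, the ratio of Col4a3 to Col4a4 stayed between 0.622 and 2.63 and that of Col4a1 to Col4a2 between 0.866 and 1.72 over all 29 libraries. Reads in the 22 bases where Col4a1 and Col4a2 overlap cannot be told apart, since no source used here says that strand was used.

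**Figure D5:**
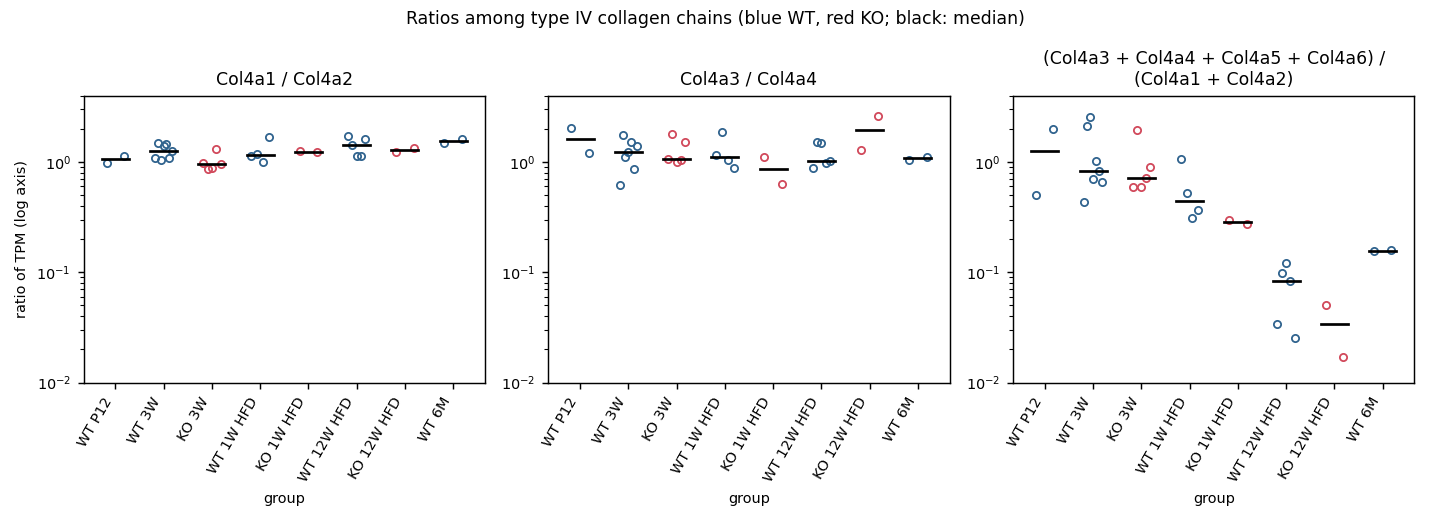
Ratios of TPM among type IV chains on a log axis, 1 panel per ratio and 1 circle per RNA library (blue WT, red KO), with the group median as a black line. The ratio of the minor to the major chains has a median of 0.835 in WT 3W, 0.0836 in WT 12W HFD and 0.157 at 6M, while Col4a1 over Col4a2 stays between 0.866 and 1.72 and Col4a3 over Col4a4 between 0.622 and 2.63.

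Fibrillar collagens fell after 12W HFD as well. Col1a2 was 472, 602, 861, 938 and 999 TPM, all below the 3W minimum of 1449 (-1.61 ± 0.22, limma adjusted p = 4.01e-06). Col1a1 was 239, 346, 815, 821 and 1104 TPM against 909 to 6194 (-1.96 ± 0.44, adjusted p = 0.00196), and Col3a1 was 1666 to 5052 against 3303 to 11189 (-1.16 ± 0.30, adjusted p = 0.0071). In both of these the groups overlapped. Col5a1, the type V partner of Col5a2, changed by -0.98 ± 0.24 (adjusted p = 0.0056), and Col11a1 was 0.07 to 0.51 TPM (-2.20 ± 0.31, adjusted p = 5.42e-06). Col16a1 was 20.8 to 27.8 TPM (-1.61 ± 0.26, adjusted p = 5.11e-05).

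Col8a1 and Col6a5 were again called higher, and so was Col18a1. Col8a1 was 26.1, 32.1, 47.0, 61.7 and 72.9 TPM (4.40 ± 0.52, limma adjusted p = 3.31e-07) and Col6a5 was 51.7, 67.2, 81.4, 83.0 and 129 (3.46 ± 0.50, adjusted p = 7.03e-06), both without overlap with 3W. Col18a1, the precursor of endostatin, was 6.98, 8.52, 13.9, 30.0 and 31.5 TPM against 2.85 to 11.2 at 3W (1.54 ± 0.36, adjusted p = 0.00276). Neither Col8a1 nor Col6a5 differed between 12W and 1W HFD by the test.

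In this comparison all 10 macrophage markers were called higher (median log2 change 5.85) and 4 of 5 tested lymphocyte markers too, while 3 of 8 pericyte and smooth muscle markers were called lower; of 6 adipocyte markers 1 was higher and 3 lower, and 2 of 10 endothelial and 1 of 3 tested Schwann cell markers were higher. Of the 7 fibroblast markers 1 was higher and 1 lower. Their part in the collagen changes was not tested. Scaled to the fibroblast markers, 14 collagens were lower and 3 higher in place of 11 and 3.

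The KO libraries gave the same comparisons with their own 3W controls. After 1W HFD 1 collagen rose and 2 fell relative to KO 3W (background 0.428% higher, 0.434% lower, 0.862% in either direction). Col8a1 went from 0.76 to 3.93 TPM at KO 3W to 26.2 and 29.8 (3.16 ± 0.75, limma adjusted p = 0.0386). Col11a1 went from 2.42 to 7.60 TPM to 0.04 and 0.05 (-2.25 ± 0.44, adjusted p = 0.0113), and Col16a1 from 42.7 to 118 TPM to 17.6 and 25.4 (-1.81 ± 0.38, adjusted p = 0.016). The libraries did not overlap in any of these 3, but each call was lost without either KO 1W HFD library, and that of Col8a1 also without KO 3W replicate 2 or 5. Col6a5 (2.23 ± 0.71, adjusted p = 0.15), Col28a1 (1.05) and Col4a3 (-1.64) were not called. Of the other cell types' markers, 1 of 10 macrophage and 1 of 7 mesothelial markers were called higher, and their part was not tested.

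After 12W HFD 3 collagens rose and 7 fell in KO cells (background 3.19% higher, 1.96% lower, 5.15% in either direction). Scaled to the fibroblast markers the split was 1 higher and 9 lower, and with median-ratio scaling 3 and 5. Col4a4 was 0.48 and 1.22 TPM against 13.4 to 39.2 at KO 3W (-3.87 ± 0.44, limma adjusted p = 1.45e-06), Col4a3 1.26 and 1.57 against 14.2 to 60.02 (-3.77 ± 0.58, adjusted p = 8.04e-05) and Col4a5 3.96 and 7.61 against 31.7 to 61.4 (-2.70 ± 0.37, adjusted p = 1.76e-05). Col8a1 was 46.1 and 122 TPM (4.56 ± 0.75, adjusted p = 0.000159), and Col1a2 879 and 1077 against 2549 to 4162 (-1.70 ± 0.32, adjusted p = 0.000779). In these 5 genes the libraries did not overlap, and the calls held without each library in turn. The calls of Col11a1 (-1.99), Col6a5 (2.58), Col16a1 (-1.32), Col18a1 (1.75) and Col6a6 (-1.21) were each lost without at least 1 library: Col11a1 without KO 12W HFD replicate 2, and the others without either KO 12W HFD library. Leaving out KO 3W replicate 4 or 5 ended the calls of Col16a1, Col18a1, Col6a5 and Col6a6, replicate 2 those of Col18a1 and Col6a5, and replicate 1 or 3 that of Col6a6. Col28a1 (2.07) was not called. Of 10 macrophage markers 9 were called higher here too (median log2 change 3.85), with 1 of 5 tested lymphocyte markers higher and 1 of 7 fibroblast markers lower. Their part was not tested.

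All 10 collagens called in KO cells after 12W HFD were among the 14 called in WT cells (71.4% of those), in the same direction. After 1W HFD the 3 called in KO were among the 4 called in WT (75%). The matching share over all genes was not computed, so these overlaps are not read as particular to collagens. The KO and WT comparisons share no library. The interaction tests above compare the same changes from 3W, in which diet and age are joined. After 12W HFD the difference of the KO and WT changes was 0.16 ± 0.91 (interval -1.71 to 2.03) for Col8a1. For Col4a3 it was -0.07 ± 0.71 (-1.53 to 1.39) and for Col1a2 -0.09 ± 0.39 (-0.88 to 0.71).

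Over all 12 comparisons 18 collagens were called at least once and 23 of those tested were never called. The 18 include Col9a1, tested only through its P12 level, and Col11a1, which passed the filter through its P12 and 3W levels. The share of all tested genes called at least once was not computed, so no excess or lack is read from this count. The never-called included every chain of the main type VI trimer, both major type IV chains, Col14a1 and Col15a1.

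The make-up of collagen RNA differed between groups as well, given here as ratios within libraries and with no test. The ratio of Col3a1 to Col1a2 ran from 2.28 to 3.58 in WT 3W, 3.46 to 4.72 in WT 1W HFD, 3.53 to 5.06 in WT 12W HFD and 5.16 to 6.72 at 6M. The type VI chains Col6a1, Col6a2 and Col6a3 together made up 9.23% ± 2.38 (SD, n = 7) of collagen TPM in WT 3W. In WT 12W HFD these 3 chains made up 15.3% ± 1.54 (n = 5), with the other type VI chains left out of both shares. The ratio of Col5a2 to Col5a1 ran from 0.806 to 1.29 in WT 3W and from 1.43 to 2.13 in WT 12W HFD, without overlap.

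Genes that act on collagens were read beside the chains. Their counts stand against the shares of all genes called, which were 4% higher and 6.85% lower at 6M, 4.78% and 3.25% in WT 1W HFD, 7.94% and 6.23% in WT 12W HFD and 3.19% and 1.96% in KO 12W HFD, each against its 3W group. Nothing is read from a count of 1 or 2 in lists this short. Of 35 genes for collagen folding, processing and crosslinking, 4 fell and 0 rose at 6M (median -0.59, against -0.24 for all genes): Lox, the lysyl oxidase that crosslinks fibrils (-2.46 ± 0.34), Pcolce, the enhancer of procollagen C-terminal cleavage (-1.73 ± 0.39), Plod1, a lysyl hydroxylase (-1.72 ± 0.47), and Sparc, a collagen-binding matrix protein (-1.71 ± 0.35). In WT 12W HFD against 3W 2 fell, Lox (-0.94 ± 0.25) and Sparc (-1.43 ± 0.26), and 0 rose. In WT 1W HFD 1 rose, Pcolce2 (1.58 ± 0.42). None of the 35 was called between KO and WT at any stage. Their median change in KO against WT was 0.3 at 3W (29 positive, 5 negative), 0.2 after 1W HFD (27 and 8) and 0.38 after 12W HFD (32 and 3). The medians of all genes tested were 0.01, 0 and -0.01, and the lean of the list was not tested.

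Among 13 collagen-degrading enzymes and their inhibitors, 5 rose and 1 fell in WT 12W HFD against 3W. The 5 were Timp1, an inhibitor of matrix metalloproteinases (3.53 ± 0.45), the metalloproteinases Mmp3 (2.73 ± 0.53) and Mmp13 (1.23 ± 0.32), and the cathepsins Ctsb (1.95 ± 0.19) and Ctsk (1.13 ± 0.27). Mmp16, a membrane-bound metalloproteinase, fell (-3.63 ± 0.39). In KO cells 4 rose and 1 fell in the matching comparison. Of 10 fibrillogenesis proteoglycans, small leucine-rich proteins that sit on fibrils, 1 rose (Bgn, 1.10 ± 0.25) and 4 fell (Fmod -2.17 ± 0.41, Omd -2.90 ± 0.32, Ogn -0.94 ± 0.21, Ecm2 -0.87 ± 0.22) in WT 12W HFD. At 6M 3 of them fell and 0 rose. Among 9 tested collagen receptors, 1 rose in WT 12W HFD, Lair1 (4.23 ± 0.48), which is known from leukocytes, and 1 rose after 1W HFD, Ddr2 (1.09 ± 0.27), a collagen-binding receptor kinase. All these changes are limma calls at an adjusted p under 0.05 on the same scale.

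Open chromatin at the collagen start sites was widely shared. Of the 35 collagens with a start site, 28 had a peak within 1000 bases of it in all 9 ATAC libraries, 4 in none (Col10a1, Col17a1, Col28a1, Col9a1) and 3 in some. Per library, 28 to 31 of the 35 had a peak (80% to 88.6%), against 50.8% to 57.4% of 27025 genes in the RefSeq table. All 17 collagens with a mean of at least 10 TPM had one in every library, compared with 6 of 9 at 1 to 10 TPM and 5 of 9 under 1 TPM. Peak presence was not tested between groups, which hold 2 or 3 libraries.

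Several chains whose RNA changed had a peak in every library. The start site of Col4a4, at the edge of the 71 bases printed above, had a peak within 1000 bases in all 9 libraries, WT 12W HFD included. Peaks were ranked within each library's own list by the authors' -log10 q, a measure of significance. That of the Col4a4 peak stood at the 78.2 to 87.0 percentile in all libraries but WT 12W HFD replicate 2, where it was at 63.9. Col8a1 had a peak in all 9 libraries, at percentile 58.6 to 81.7, also at WT 3W where its RNA was at most 3.17 TPM. Col16a1 had one at percentile 92.1 to 96.6.

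The Col11a1 start site had a peak in all 5 libraries at 3W (percentile 65.9 to 80.8) and in both of WT 1W HFD (50.9 and 62.8). In WT 12W HFD replicate 1 there was no peak, and in replicate 2 it stood at percentile 21.3 with a fold of 3.75. Col20a1 had a peak in 1 library and Col6a4 in 2. Lists differed in length, from 55990 to 93314 peaks, so ranks from different lists show no change.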

How the data were processed

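Gene levels are TPM values computed by the authors, in 1 table for WT and 1 for KO libraries; the submitters' processing notes name Trim Galore, FastQC, STAR, RSEM, Bowtie2, MACS2 and mm10 without giving roles. The deposited peak lists hold, per library, the authors' peak score, fold enrichment (a ratio) and the -log10 of p and q. No source used here says whether counting used strand. Limma 3.58.1 in R 4.3.3 was fitted to log2(TPM + 1) over all 29 RNA libraries with 8 group means and 21 residual degrees of freedom. The filter kept 15659 genes (1 TPM or more in 2 or more libraries), tested two-sided with Benjamini-Hochberg adjustment over all of them and a threshold of 0.05, in 12 comparisons. Fold changes are on the log2(TPM + 1) scale, which understates low genes. The fit was tested on simulated data. Read depth is unknown, so no counting interval is given.

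The genes named are all members called in any comparison, the 12 with the highest mean, the 3 largest changes in each direction per comparison, members of shared trimers or neighbouring pairs, and Tcf21. The rule for members uses gene symbols alone, but the family, gene lists and markers were chosen with earlier results of these data known. Titles at 3W name pairs. The correlations of same-pair deviations were 0.21, 0.48, 0.18, -0.13, 0.21 and 0.22. They were not all above 0.1, so no pair term was used in the main fit. All but the -0.13, of KO 3W replicate 3 with WT 3W replicate 5, were positive. The SEs given for KO against WT at 3W therefore leave this pairing out. Alternatives were other scalings, a pseudocount of 0.1, no filter, the compared groups alone, a block term and leaving out each library. The block was the pair number for KO against WT at 3W and the replicate number in all other comparisons. Scaling to fibroblast markers was added after seeing the data.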

Additional observations from a re-analysis of the deposited data

Results flagged for a closer look

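Single libraries stood far from the rest of their group in 15 of 140 sets of a collagen and a group. The rule was Dixon's test, which sets the gap to the nearest library against the range. For normally distributed values chance alone flags about 1 in 20 such sets. It was run on TPM, with some sets mostly at 0, so that rate need not hold and no excess is read. Each value is in TPM, and no cause was tested. KO 3W replicate 2 was low for Col5a2 at 109.02 (others 178.76 to 193.68) and for Col14a1 at 228.35 (others 398.37 to 433.38), and high for Col23a1 at 16.93 (others 0.77 to 3.73). Its titled partner, WT 3W replicate 2, was the lowest WT 3W library for Col14a1 (91.09) and the highest for Col23a1 (24.79). For Col5a2 that partner stood at 91.1, inside the WT 3W range of 79.52 to 199.31. WT 3W replicate 3 was high for Col6a5 at 43.88 (others 2.12 to 8.77) and Col28a1 at 3.32 (others 0 to 1.22). WT 3W replicate 2 was high for Col8a1 at 3.17 (others 0.57 to 1.42) and Col7a1 at 6.83 (others 0 to 1.88). WT 3W replicate 6 was high for Col18a1 at 11.24 (others 2.85 to 4.99) and Col26a1 at 3.02 (others 0 to 0.62).

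WT 1W HFD replicate 2 was high for Col6a6 at 21.45 (others 17.97 to 18.35), Col4a6 at 8.58 (others 3.51 to 4.33) and Col13a1 at 0.09 (others listed at 0). WT 1W HFD replicate 4 was high for Col27a1 at 4.07 (others 2.47 to 2.67). WT 12W HFD replicate 1 was high for Col13a1 at 0.40 (others 0 to 0.05), and replicate 4 was low for Col27a1 at 3.14 (others 4.37 to 4.71).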

How the results depend on the processing

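Limits first: groups of 2 libraries carry the P12, 6M and KO HFD results, depth is unknown, and the spread may be technical. No collagen value named as called changed direction under any alternative run. Of 49 collagen calls, 30 held without each library in turn. For 3W against P12 (1 collagen called), the count was 0 with a pseudocount of 0.1, 2 with no filter, 4 with fibroblast-marker scaling, 0 with the compared groups alone and 0 with the replicate block. For 6M against 3W (12) it was 7 with the groups alone and 0 with the block. For WT 12W against 1W HFD (5) it was 3 with fibroblast-marker scaling and 3 with the block. For KO 1W HFD against 3W (3) it was 0 with the groups alone and 0 with the block. The block gave 0 for WT 1W HFD against 3W (4) and 0 for KO 12W HFD against 3W (10), 12 for WT 12W HFD against 3W (14), and 0 for the 3 comparisons of KO with WT and both interactions. The causes were not tested. Only KO against WT at 3W was blocked on the pair numbers of the titles. All other comparisons were blocked on replicate numbers, which the titles do not give as pairs. Deviations of libraries that share only such a number had correlations of -0.18 to 0.15. The block counts of those comparisons therefore do not test a pairing.

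Leaving out 1 library at a time gave 0 to 5 collagens for 3W against P12, 7 to 14 for 6M, 4 to 6 for WT 1W HFD, 13 to 17 for WT 12W HFD, 3 to 5 for 12W against 1W HFD, 0 to 3 for KO 1W HFD and 5 to 9 for KO 12W HFD. It gave 0 to 0 for each comparison of KO with WT and each interaction. Peak counts at start sites stayed within 1.5 times with a window of 500 bases or a -log10 q of at least 5.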
